A study of Mus musculus with 22 samples.

Results

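The collagen gene family was taken as every gene whose whole symbol has the form Col, a type number, a and a chain number, which gave 44 of the 45777 genes in the count tables. By type number, 11 of them encode fibrillar collagens (types I, II, III, V, XI, XXIV and XXVII), 8 encode collagens of basement membranes (types IV, XV and XVIII) and 25 encode other types. The choice used no measured value.

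Messenger RNA of livers from wild-type male C57BL/6J mice was sequenced after polyA selection with a strand-marking kit, in 22 libraries that form a high-fat diet (HFD) cohort and a methionine- and choline-deficient diet (MCD) cohort, which the labels also give as batches. The HFD cohort held 4 livers from mice fed HFD and given DTMB, 4 from mice fed HFD and given vehicle, and 3 from mice fed normal diet and given vehicle. The MCD cohort held 3 livers from mice fed MCD diet and given DTMB, 4 with MCD diet and vehicle, and 4 with normal diet and vehicle. DTMB is the code name of the tested compound, dosed orally at 10 mg/kg each day. The sources used here give neither the age of the mice nor the length of feeding.

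Collagens are secreted as helical bundles of α chains and are the main structural proteins of the extracellular matrix. Fibrillar types form the cross-banded fibres that accumulate as scar in chronic liver injury, where activated hepatic stellate cells and portal fibroblasts are their main source. Type IV forms the sheet-like network of basement membranes, to which types XV and XVIII attach, while types VI, XII, XIV and XVI sit on or between fibrils, and types XIII, XXIII and XXV span the cell membrane.

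Proximal promoters are shown for 4 members that recur in the results, Col3a1 and Col1a2 as the most abundant fibrillar genes with an entry, and Col4a1 and Col4a2 as a divergent gene pair. Each run is a window of RefSeq's GRCm38.p6 promoters, 250 bases before to 50 bases after a start site, read 5′ to 3′ on the gene's strand. For Col4a1 that site lies inside the gene, whose annotated 5′ end is at 11312889 on chromosome 8, and for the other 3 it is the gene's annotated start. Capitals mark 3 motifs on either strand, none overlapping another. The CCAAT box was searched as CCAAT. The GC box was searched as GGGCGG, and the TATA box as TATAAA. The windows are chr1:45311288-45311587 on the plus strand for Col3a1, chr6:4505368-4505667 on the plus strand for Col1a2, chr8:11312777-11313076 on the minus strand for Col4a1 and chr8:11312555-11312854 on the plus strand for Col4a2.
Col3a1: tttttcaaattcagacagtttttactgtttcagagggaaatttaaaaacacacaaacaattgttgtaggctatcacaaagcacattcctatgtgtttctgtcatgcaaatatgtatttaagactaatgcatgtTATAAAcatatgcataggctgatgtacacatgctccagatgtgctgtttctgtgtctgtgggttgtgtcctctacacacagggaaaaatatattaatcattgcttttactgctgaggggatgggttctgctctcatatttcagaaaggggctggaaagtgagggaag
Col1a2: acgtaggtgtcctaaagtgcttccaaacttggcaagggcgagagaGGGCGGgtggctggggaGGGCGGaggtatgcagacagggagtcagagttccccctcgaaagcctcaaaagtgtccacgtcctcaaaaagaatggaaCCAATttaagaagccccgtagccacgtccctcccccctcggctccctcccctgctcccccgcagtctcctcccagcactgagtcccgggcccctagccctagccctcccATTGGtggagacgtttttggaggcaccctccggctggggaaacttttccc
Col4a1: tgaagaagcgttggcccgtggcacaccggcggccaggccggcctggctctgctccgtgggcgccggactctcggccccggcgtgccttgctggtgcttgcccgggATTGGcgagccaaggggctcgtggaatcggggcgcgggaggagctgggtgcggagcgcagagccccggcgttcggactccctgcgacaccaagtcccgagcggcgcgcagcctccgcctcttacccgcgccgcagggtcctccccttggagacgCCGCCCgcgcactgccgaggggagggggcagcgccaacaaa
Col4a2: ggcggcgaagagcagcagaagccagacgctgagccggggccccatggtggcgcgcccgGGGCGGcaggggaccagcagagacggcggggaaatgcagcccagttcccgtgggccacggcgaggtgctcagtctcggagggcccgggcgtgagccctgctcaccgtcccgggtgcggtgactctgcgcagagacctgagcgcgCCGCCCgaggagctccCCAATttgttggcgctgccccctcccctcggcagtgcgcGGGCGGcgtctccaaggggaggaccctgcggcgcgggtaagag
A box here is a match of letters alone, wherever it lies in the window. The Col3a1 window held 1 TATA box, beginning at base 134 of the window, and neither of the other motifs. The Col1a2 window held 2 CCAAT boxes and 2 GC boxes, 1 CCAAT box on each strand. The Col4a1 window held 1 CCAAT box and 1 GC box, and that of Col4a2 held 1 CCAAT box and 3 GC boxes. Some matches in the Col1a2, Col4a1 and Col4a2 windows lie at or after the start site. The Col4a1 and Col4a2 windows as given here share 78 bases, and the genes are read in opposite directions. The GC box of Col4a1 and the last GC box of Col4a2 are the same bases within that stretch. Among 32851 RefSeq promoter windows of the same length, 37.4% held a CCAAT box, 35.7% a GC box and 13.6% a TATA box on either strand. Windows were found for 35 of the 44 collagens. Of their 38 windows, 13 held a CCAAT box, 23 a GC box and 5 a TATA box.

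Libraries held 50.1 to 66.7 M counts. Levels are given as CPM, counts per M of the library size after TMM scaling within a cohort, so levels cannot be set side by side across cohorts. Pancreatic acinar transcripts summed to over 100 CPM of the unscaled library in 6 libraries and to at most 23.1 CPM in any other. In the HFD cohort these were DTMB replicate 3, vehicle replicates 1 and 4 and normal-diet replicates 1 and 3, and in the MCD cohort normal-diet replicate 4. Skeletal muscle transcripts summed to 212 CPM in normal-diet replicate 1 of the HFD cohort and to at most 6.11 CPM elsewhere. Hepatocyte markers summed to 66511 to 109617 CPM. HFD vehicle replicate 4 was the highest of its group for 19 of 28 tested collagens. In the MCD cohort, vehicle replicate 2 and normal-diet replicate 1 were the highest of their groups for 22 of 32 each.

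Of the 44 collagens, 28 passed the filter on low counts in the HFD cohort (8 fibrillar, 7 basement membrane, 13 other) and 32 in the MCD cohort (9, 8 and 15). Of the rest, 12 were below it in both cohorts. Among those, Col2a1, Col10a1, Col19a1 and Col26a1 had no count in any library, and the highest levels were 0.155 CPM for Col7a1 in the HFD cohort and 0.211 CPM for Col9a3 in the MCD cohort. Col18a1, the multiplexin whose C-terminal fragment is endostatin and which hepatocytes are known to make, took 46.9% to 89.7% of all collagen counts of a library. Per kilobase of exon its level in HFD vehicle livers was 125 CPM per kb, followed by Col14a1 at 8.40, Col3a1 at 5.59, Col4a1 at 5.07, Col4a2 at 2.8, Col1a1 at 2.64 and Col5a3 at 2.40 CPM per kb.

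The first question was how each diet and DTMB on that diet changed collagen messages. On HFD with vehicle, 7 of 8 tested fibrillar genes and Col6a1, Col6a2 and Col6a3 of type VI rose against normal diet. With DTMB on HFD, 6 of the 8 and the same type VI genes fell against vehicle. Col24a1, a fibrillar gene of low level, stood at -1.15 ± 1.2 for the diet (adjusted p = 0.509) and 0.72 ± 1.1 with DTMB (adjusted p = 0.705), and Col6a5 and Col6a6 were called in neither comparison. Of the 28 tested collagens, 15 rose and 1 fell in HFD vehicle against normal-diet livers, where 15.2% and 12.6% of all 15597 tested genes were called in those directions, and 27.8% in either. Their median log2 fold change was 0.73, against 0.015 over all tested genes. In HFD DTMB against HFD vehicle livers, 0 rose and 14 fell, where 6.64% and 6.04% of all genes did, and 12.7% in either direction. The median was -0.78, against -0.015 over all tested genes. The lower calls with DTMB were therefore a larger share among the tested collagens than over all genes. Both comparisons use the same 4 HFD vehicle libraries. In bulk tissue, a lower level through fewer cells of a type and through less RNA per cell cannot be told apart.

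These HFD counts fell when the libraries with acinar transcripts were left out. Acinar content and the loss of replicates cannot be told apart in that run. Leaving out those libraries keeps 3 libraries with DTMB, 2 with vehicle and 1 on normal diet. The lone normal-diet library is assumed to vary like the other groups. The collagens called then numbered 1 (Col5a3) for HFD vehicle against normal diet, with 7 at an unadjusted p below 0.05, while 655 of 16101 genes of the whole table passed. For HFD DTMB against HFD vehicle, 0 were called by edgeR, with 14 at an unadjusted p below 0.05, while 0 of 16101 genes passed. The fold changes of the collagens called in these comparisons kept their sign in this setting. For Col1a1 they were 2.11 ± 0.63 (SE) for the diet and -1.78 ± 0.42 for DTMB, and for Col3a1 2.03 ± 0.45 and -1.29 ± 0.30. Leaving out 1 library at a time gave 12 to 17 calls for the diet. For DTMB it gave 8 to 14, with 8 without HFD vehicle replicate 1 or without HFD DTMB replicate 4, and 9 without HFD vehicle replicate 2 or 4. In a joint fit of all 22 libraries, 10 collagens were called for the diet and 2 for DTMB, where 3034 and 542 of 16541 genes were.

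**Figure D1:**
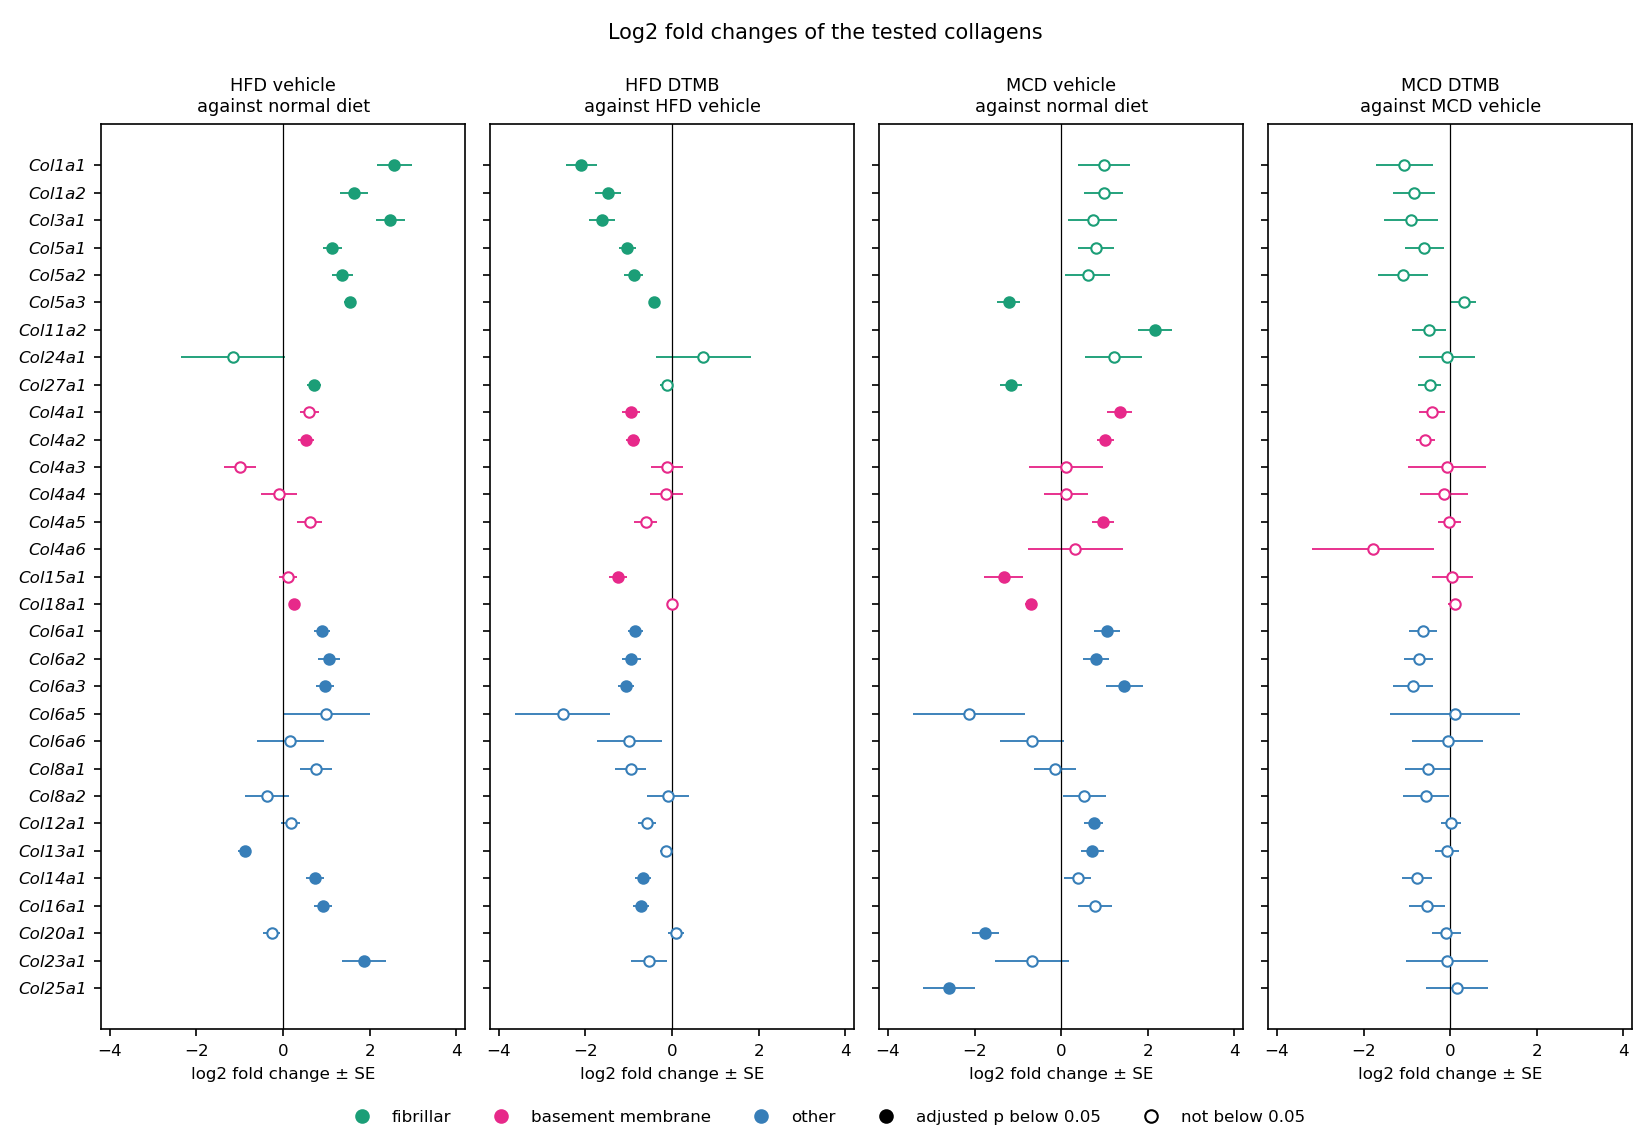
Log2 fold change ± SE (x axis) of each tested collagen (rows, by class) in 4 comparisons; filled points passed an adjusted p of 0.05, and Col22a1, at 0 in the MCD normal-diet libraries, is left out. The filled fibrillar points lie right of 0 for HFD vehicle against normal diet and left of it for HFD DTMB against HFD vehicle, Col24a1 (open) lies on the other side in both, and no point is filled for MCD DTMB against MCD vehicle.

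The plot of fold changes by class shows the pattern that the next paragraphs give gene by gene. Fibrillar collagens moved most on HFD. Of 8 tested, 7 rose on HFD with vehicle and 6 fell with DTMB against vehicle, with median log2 fold changes of 1.46 and -0.96. Col1a1 and Col1a2 encode the chains of type I collagen, the bulk of scar fibres, and Col3a1 encodes type III, which is laid down with it. Col1a1 had 6.08, 3.26, 4.87 and 1.96 CPM in HFD DTMB livers, 18.7, 15.8, 9.89 and 24.9 CPM in HFD vehicle livers, and 3.96, 2.96 and 1.82 CPM in normal-diet livers. Every HFD vehicle liver was above every liver of the other groups, which overlapped each other. The log2 fold change was 2.57 ± 0.41 (SE, adjusted p = 0.000857) for HFD vehicle against normal diet and -2.1 ± 0.36 (adjusted p = 0.00987) for HFD DTMB against HFD vehicle.

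Col3a1 had 20.9, 16.3, 23.1 and 10.9 CPM in HFD DTMB livers, 57.0, 49.4, 28.8 and 84.3 CPM in HFD vehicle livers, and 9.80, 9.52 and 10.2 CPM in normal-diet livers. The groups did not overlap, with DTMB between the others. Col3a1 rose by 2.48 ± 0.33 on the log2 scale on HFD (adjusted p = 0.000283) and fell by 1.62 ± 0.29 with DTMB (adjusted p = 0.0106). Col1a2 had 10.7, 7.25, 9.86 and 4.57 CPM in HFD DTMB livers, 22.7, 19.6, 13.3 and 34.3 CPM in HFD vehicle livers, and 8.39, 7.89 and 5.33 CPM in normal-diet livers. It rose by 1.64 ± 0.33 on HFD (adjusted p = 0.00373) and fell by 1.47 ± 0.30 with DTMB (adjusted p = 0.0144). Its HFD vehicle livers stood clear of the rest, and the DTMB and normal-diet livers overlapped.

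Type V collagen sets the width of type I fibrils. Col5a1 had 4.80, 3.87, 4.99 and 3.00 CPM in HFD DTMB livers, 8.76, 7.71, 6.18 and 11.4 CPM in HFD vehicle livers, and 3.73, 3.67 and 4.18 CPM in normal-diet livers, with HFD vehicle again apart from both. Its log2 fold changes were 1.14 ± 0.21 on HFD (adjusted p = 0.00213) and -1.03 ± 0.19 with DTMB (adjusted p = 0.0110). Col5a2 changed alike, by 1.37 ± 0.25 on HFD (adjusted p = 0.00198) and -0.89 ± 0.22 with DTMB (adjusted p = 0.0272). The DTMB call for Col5a2 was lost without HFD vehicle replicate 1, 2 or 4 or HFD DTMB replicate 3 or 4, with adjusted p of 0.0626 to 0.0775.

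Col5a3, the least widespread type V chain, behaved differently under DTMB. It had 15.7, 10.6, 11.6 and 11 CPM in HFD DTMB livers, 14.6, 17.0, 16.4 and 17.3 CPM in HFD vehicle livers, and 5.23, 6.08 and 5.50 CPM in normal-diet livers. Both HFD groups lay well above normal diet, and DTMB replicate 1 lay within the vehicle range. The log2 fold change was 1.54 ± 0.13 for HFD vehicle against normal diet (adjusted p = 2.31e-05) and 1.13 ± 0.13 for HFD DTMB against normal diet (adjusted p = 0.000114). Against vehicle the DTMB value was -0.42 ± 0.12 (adjusted p = 0.0390), a call that held without HFD DTMB replicate 1 and was lost without any other single library of both groups (adjusted p 0.0507 to 0.103). Col27a1, a fibrillar collagen best known from cartilage, rose by 0.72 ± 0.16 on HFD (adjusted p = 0.00638). It stood at -0.12 ± 0.15 with DTMB against vehicle (adjusted p = 0.599).

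**Figure D2:**
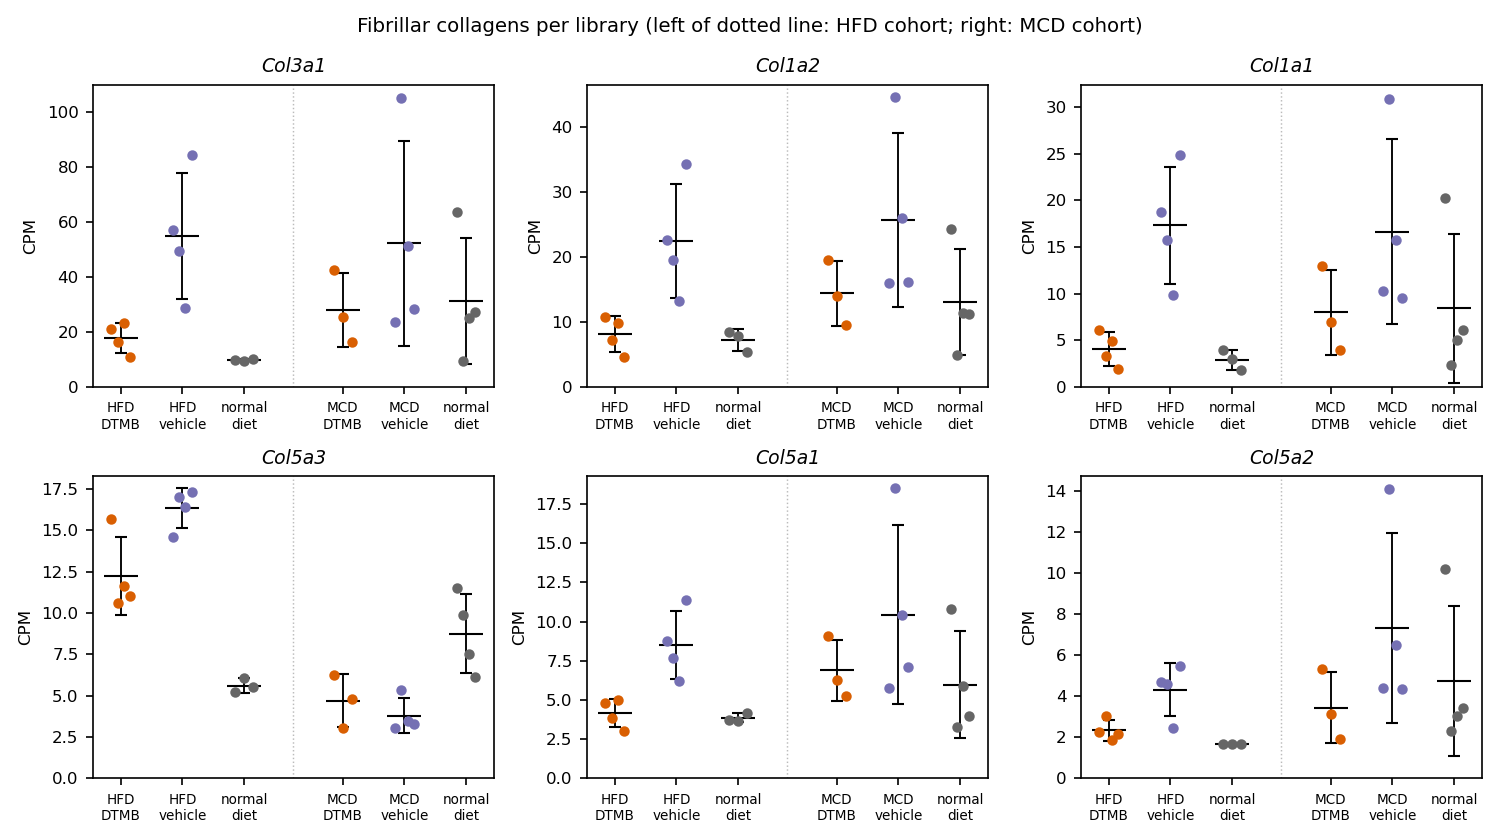
CPM per library (y axis) of the 5 most abundant fibrillar collagens and Col5a2, with DTMB, vehicle and normal-diet groups in that order for each cohort; points are livers and bars the mean ± SD. Col3a1 reached 28.8 to 84.3 CPM in HFD vehicle livers, above all other livers of that cohort, while in the MCD cohort the groups overlapped, except for Col5a3, whose normal-diet livers were above the MCD vehicle livers.

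The plot of fibrillar collagens per library shows more scatter in the MCD cohort than in the HFD cohort. There, 1 of 9 tested fibrillar genes rose and 2 fell in MCD vehicle against normal-diet livers. Over all tested collagens 10 rose and 6 fell, where 20.3% and 21.0% of all 16037 tested genes were called in those directions and 41.3% in either. The lower calls were near that background. The calls include Col22a1 (higher) and Col25a1 (lower), which passed the filter only through the groups where they are high. The median log2 fold change was 0.67 over tested collagens and 0.004 over all tested genes. Col1a1 had 13.0, 6.96 and 3.99 CPM in MCD DTMB livers, 10.3, 30.9, 15.8 and 9.49 CPM in MCD vehicle livers, and 20.2, 2.37, 5.0 and 6.09 CPM in normal-diet livers. Normal-diet replicate 1 lay above 3 of the 4 MCD vehicle livers. The log2 fold change of 0.98 ± 0.60 for MCD vehicle against normal diet did not pass (adjusted p = 0.212). Without that library it was 1.89 ± 0.51 (adjusted p = 0.0142).

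The same library was the highest of its group for the other type I, III and V chains. Col3a1 had 42.6, 25.2 and 16.1 CPM in MCD DTMB livers, 23.7, 105, 51.2 and 28.4 CPM in MCD vehicle livers, and 63.4, 9.52, 24.9 and 27.2 CPM in normal-diet livers. The log2 fold change of Col3a1 on MCD diet was 0.73 ± 0.56 (adjusted p = 0.318), and 1.34 ± 0.54 (adjusted p = 0.0733) without normal-diet replicate 1. Col1a2 had 19.6, 14.0 and 9.59 CPM in MCD DTMB livers, 16, 44.6, 26.0 and 16.2 CPM in MCD vehicle livers, and 24.4, 4.96, 11.4 and 11.3 CPM in normal-diet livers, all groups overlapping. Its value was 0.98 ± 0.45 (adjusted p = 0.0996), and 1.47 ± 0.42 (adjusted p = 0.0173) without that library. Col5a1 had 9.07, 6.30 and 5.28 CPM in MCD DTMB livers, 5.78, 18.5, 10.4 and 7.09 CPM in MCD vehicle livers, and 10.8, 3.29, 5.89 and 3.95 CPM in normal-diet livers. Its value of 0.80 ± 0.41 (adjusted p = 0.141) passed without that library at 1.25 ± 0.39 (adjusted p = 0.0256), as did Col5a2 at 1.32 ± 0.46 (adjusted p = 0.0406). In all, 15 collagens were higher and 6 lower without normal-diet replicate 1. Leaving out MCD vehicle replicate 2 instead gave 0.50 for Col1a1 and 0.14 for Col3a1, neither past the threshold.

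Col5a3 went the other way on MCD diet. It had 6.23, 3.04 and 4.81 CPM in MCD DTMB livers, 3.03, 5.34, 3.47 and 3.26 CPM in MCD vehicle livers, and 11.5, 9.88, 7.50 and 6.13 CPM in normal-diet livers. All MCD vehicle livers were below all normal-diet livers, and it fell by 1.21 ± 0.27 on the log2 scale (adjusted p = 0.00382). Col27a1 also fell, by 1.16 ± 0.25 (adjusted p = 0.00285). Col11a2, a chain of cartilage type XI collagen, rose by 2.16 ± 0.39 (adjusted p = 0.00117), at 0.872 ± 0.406 CPM in MCD vehicle livers and 0.193 ± 0.0466 CPM in normal-diet livers (SD, n = 4 each). Among the cartilage markers, Acan was at 0 in every library of both cohorts.

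The difference between the cohorts in the diet effect was tested in 1 model over all 22 libraries, as HFD minus MCD. Of 32 tested collagens 6 were higher and 2 lower in this contrast, where 18.5% and 16.8% of all 16541 tested genes were, and 35.3% in either direction. The count was thus no larger than the background, and it included Col22a1 and Col25a1, which have the same filter limit. Among fibrillar genes it held Col5a3, at 2.73 ± 0.32 (adjusted p = 2.17e-06), and Col27a1, at 1.85 ± 0.29 (adjusted p = 5.98e-05). Col1a1, at 1.57 ± 0.80 (adjusted p = 0.139), and Col3a1, at 1.72 ± 0.73 (adjusted p = 0.0731), did not pass. Diet and cohort cannot be told apart in this contrast.

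Among basement membrane collagens on HFD, 2 of 7 tested rose and 0 fell with vehicle against normal diet. That was near the 27.8% of all genes called in either direction. With DTMB against vehicle 3 of 7 fell, where 6.04% of all genes did. Col4a1 and Col4a2 encode the chains of the common type IV network. Col4a1 had 27.2, 17.0, 17.8 and 16.4 CPM in HFD DTMB livers, 41.6, 30.9, 27.1 and 51.9 CPM in HFD vehicle livers, and 25.6, 23.7 and 25.9 CPM in normal-diet livers. HFD vehicle livers were all above normal diet, and DTMB replicate 1 was just above the lowest of them. The DTMB value of -0.95 ± 0.20 on the log2 scale passed (adjusted p = 0.0167), and the diet value of 0.60 ± 0.22 did not (adjusted p = 0.0621). The DTMB call was lost without HFD vehicle replicate 1 (adjusted p = 0.0520) or HFD DTMB replicate 4 (adjusted p = 0.0547).

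Col4a2 had 11.6, 9.30, 9.25 and 9.44 CPM in HFD DTMB livers, 20.3, 16.3, 12.9 and 24.5 CPM in HFD vehicle livers, and 13.6, 12.3 and 12.5 CPM in normal-diet livers. The DTMB livers were the lowest of the cohort without overlap. With DTMB Col4a2 fell by 0.90 ± 0.16 against vehicle (adjusted p = 0.0109). On HFD with vehicle it rose by 0.53 ± 0.18 (adjusted p = 0.0412), a call lost without any of the 3 normal-diet libraries or without HFD vehicle replicate 1 or 4 (adjusted p 0.0787 to 0.112).

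Col15a1, a multiplexin of basement membranes beneath endothelium and muscle, had 2.12, 2.56, 1.61 and 1.44 CPM in HFD DTMB livers, 3.70, 5.35, 3.84 and 5.40 CPM in HFD vehicle livers, and 4.01, 4.86 and 3.83 CPM in normal-diet livers. All DTMB livers were below both other groups, which overlapped. It stood at 0.11 ± 0.21 for the diet (adjusted p = 0.721), and with DTMB it fell by 1.25 ± 0.20 against vehicle (adjusted p = 0.00981) and by 1.13 ± 0.21 against normal diet (adjusted p = 0.00197). Col18a1 had 924, 976, 795 and 809 CPM in HFD DTMB livers, 874, 867, 929 and 842 CPM in HFD vehicle livers, and 698, 765 and 745 CPM in normal-diet livers. Both HFD groups were above normal diet, and the vehicle livers lay within the range of the DTMB livers. Its log2 fold change was 0.25 ± 0.082 for HFD vehicle against normal diet (adjusted p = 0.0364) and 0.00 ± 0.075 for DTMB against vehicle (adjusted p = 0.984). The diet call held only without HFD vehicle replicate 4, and was lost without any other single library of the compared groups (adjusted p 0.0533 to 0.144).

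**Figure D3:**
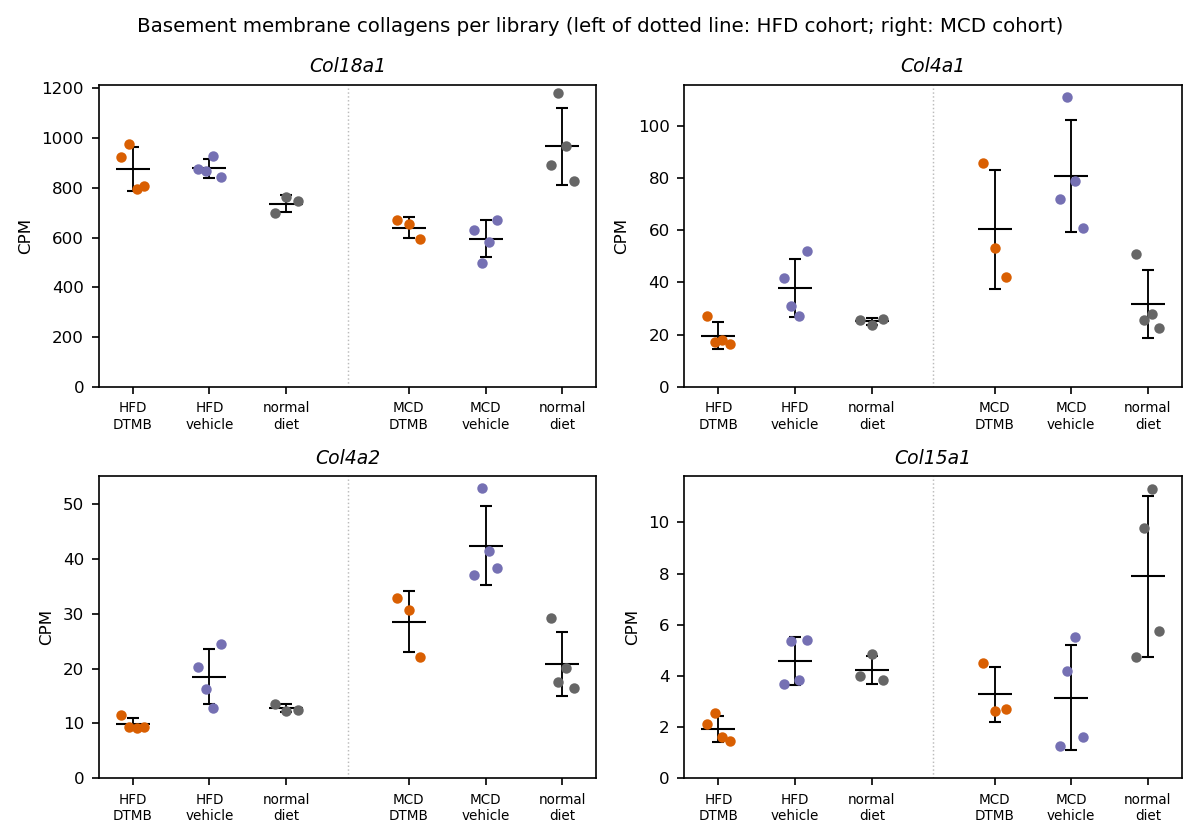
CPM per library (y axis) of the 4 most abundant basement membrane collagens, with DTMB, vehicle and normal-diet groups in that order for each cohort; points are livers and bars the mean ± SD. MCD vehicle livers were above normal-diet livers for Col4a1 and Col4a2 (61.0 to 111 against 22.5 to 51.0 CPM for Col4a1) and below them for Col18a1 (497 to 671 against 828 to 1181 CPM).

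The plot of basement membrane collagens per library shows type IV and type XVIII genes on opposite sides of normal diet in the MCD cohort. There, 3 of 8 tested rose and 2 fell with vehicle against normal diet, where 20.3% and 21.0% of all genes did. Col4a1 had 85.9, 53.1 and 42.1 CPM in MCD DTMB livers, 71.8, 111, 78.8 and 61.0 CPM in MCD vehicle livers, and 51.0, 25.6, 27.8 and 22.5 CPM in normal-diet livers. The MCD vehicle livers were all above normal diet. Col4a1 rose by 1.35 ± 0.29 (adjusted p = 0.00341). Col4a2 had 32.8, 30.7 and 22.2 CPM in MCD DTMB livers, 37.0, 52.9, 41.4 and 38.3 CPM in MCD vehicle livers, and 29.3, 17.6, 20.1 and 16.4 CPM in normal-diet livers. It rose by 1.02 ± 0.20 (adjusted p = 0.00155), and its MCD vehicle livers overlapped neither other group. Col4a5, a chain of the kidney-type network, rose by 0.97 ± 0.25 (adjusted p = 0.00824), at 2.87 ± 0.904 CPM in MCD vehicle livers and 1.46 ± 0.372 CPM in normal-diet livers (SD, n = 4 each). The calls for Col4a1 and Col4a2 held in all 8 fits that left out 1 library.

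Col18a1 had 672, 654 and 594 CPM in MCD DTMB livers, 629, 497, 583 and 671 CPM in MCD vehicle livers, and 889.7, 1181, 966 and 828 CPM in normal-diet livers. All MCD-diet livers were below all normal-diet livers. It fell by 0.70 ± 0.14 with vehicle (adjusted p = 0.00172) and by 0.59 ± 0.15 with DTMB against normal diet (adjusted p = 0.00970). Its size depends on the scaling. With library size alone, which moves the median log2 fold change of all genes to 0.47 for MCD vehicle against normal diet, Col18a1 stood at -0.24 (adjusted p = 0.109), still below that median. Col15a1 had 4.51, 2.62 and 2.70 CPM in MCD DTMB livers, 1.27, 4.2, 5.53 and 1.62 CPM in MCD vehicle livers, and 4.72, 9.79, 11.3 and 5.74 CPM in normal-diet livers. MCD vehicle replicate 3 lay within the normal-diet range. Col15a1 fell by 1.32 ± 0.45 (adjusted p = 0.0344), a call lost with library size alone (-0.81, adjusted p = 0.158) and without MCD vehicle replicate 1 or 4 or normal-diet replicate 2 or 3 (adjusted p 0.0677 to 0.0957). Between cohorts, the diet effect differed by 0.92 ± 0.15 for Col18a1 (adjusted p = 9.41e-05) and by 1.41 ± 0.54 for Col15a1 (adjusted p = 0.0496), higher on HFD for both. The Col15a1 difference stayed past the threshold only without MCD vehicle replicate 2 or 3 or MCD-cohort normal-diet replicate 1 or 4, and was lost in the other 11 of 15 fits (adjusted p 0.0516 to 0.11).

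Of the other collagens, 13 were tested on HFD. With vehicle against normal diet 6 rose and 1 fell, where 15.2% and 12.6% of all genes did. With DTMB against vehicle 5 fell, where 6.04% of all genes did. Col14a1, a fibril-associated collagen, was the most abundant of the other collagens. It had 42.0, 30.7, 42.5 and 32.8 CPM in HFD DTMB livers, 61.9, 51.7, 41.1 and 80.9 CPM in HFD vehicle livers, and 33.1, 33.9 and 39.0 CPM in normal-diet livers. HFD vehicle livers were all above normal diet, and replicate 3 of them lay within the DTMB range. The log2 fold change was 0.74 ± 0.20 on HFD (adjusted p = 0.0156) and -0.67 ± 0.18 with DTMB (adjusted p = 0.0338). The diet call was lost without normal-diet replicate 1 or 2 (adjusted p 0.0623 and 0.0540), and the DTMB call held only without HFD vehicle replicate 3 or HFD DTMB replicate 1.

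Type VI collagen forms beaded filaments between cells and fibrils from the products of Col6a1, Col6a2 and Col6a3. Col6a3 had 5.88, 3.81, 4.79 and 3.83 CPM in HFD DTMB livers, 9.97, 8.83, 6.96 and 12.5 CPM in HFD vehicle livers, and 5.37, 4.78 and 4.51 CPM in normal-diet livers. HFD vehicle livers were above all others. It rose by 0.97 ± 0.20 on HFD (adjusted p = 0.00388) and fell by 1.06 ± 0.18 with DTMB (adjusted p = 0.00987). Col6a1 had 5.10, 5.74, 5.10 and 4.55 CPM in HFD DTMB livers, 8.26, 9.99, 6.76 and 12.0 CPM in HFD vehicle livers, and 4.85, 6.08 and 3.95 CPM in normal-diet livers. Its log2 fold changes were 0.90 ± 0.19 (adjusted p = 0.00469) and -0.85 ± 0.17 (adjusted p = 0.0144), again with HFD vehicle livers above all others.

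Col6a2 had 3.49, 4.23, 3.31 and 2.1 CPM in HFD DTMB livers, 5.47, 7.26, 4.28 and 8.08 CPM in HFD vehicle livers, and 3.41, 2.78 and 2.85 CPM in normal-diet livers. Its HFD vehicle livers were above all others by a narrow margin over DTMB replicate 2. It rose by 1.06 ± 0.25 on HFD (adjusted p = 0.00797) and fell by 0.94 ± 0.22 with DTMB (adjusted p = 0.0229). The DTMB call was lost without HFD vehicle replicate 1, 2 or 4 or HFD DTMB replicate 3 or 4 (adjusted p 0.0518 to 0.0672). Col23a1, a transmembrane collagen of low level, rose by 1.86 ± 0.51 on HFD (adjusted p = 0.0178), a call lost without any of the normal-diet libraries (adjusted p 0.0550 to 0.0599). The remaining calls were for Col16a1, a fibril-associated collagen, which rose by 0.92 ± 0.21 (adjusted p = 0.00715) and fell by 0.72 ± 0.19 with DTMB (adjusted p = 0.0318).

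Col13a1, a transmembrane collagen of cell adhesion sites, was the member that fell on HFD. It had 2.39, 2.07, 2.60 and 2.45 CPM in HFD DTMB livers, 2.75, 2.89, 2.11 and 2.72 CPM in HFD vehicle livers, and 5.59, 4.66 and 4.19 CPM in normal-diet livers. All normal-diet livers were above both HFD groups, which overlapped. It fell by 0.88 ± 0.15 with vehicle against normal diet (adjusted p = 0.00118) and stood at -0.14 ± 0.14 with DTMB against vehicle (adjusted p = 0.537). Normal-diet replicate 1, the library with muscle transcripts, had the highest level of its group, and without it the diet call held, at -0.77.

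**Figure D4:**
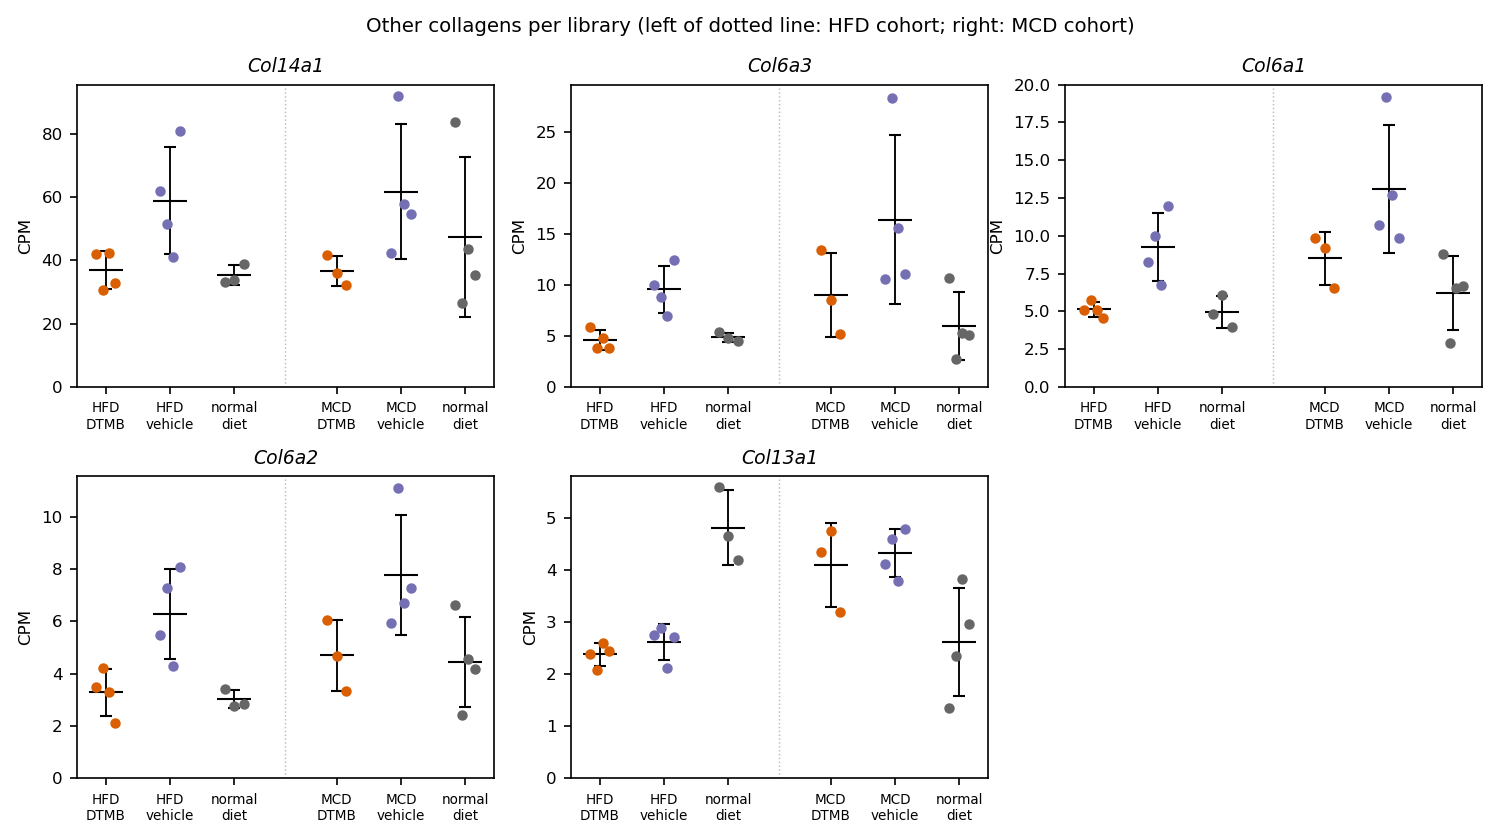
CPM per library (y axis) of the 5 most abundant other collagens, with DTMB, vehicle and normal-diet groups in that order for each cohort; points are livers and bars the mean ± SD. Col13a1 was at 2.11 to 2.89 CPM in HFD vehicle livers against 4.19 to 5.59 CPM in normal-diet livers, and at 3.79 to 4.79 CPM in MCD vehicle livers against 1.35 to 3.82 CPM in normal-diet livers.

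The plot of the other collagens per library shows Col13a1 on opposite sides of normal diet in the cohorts. In the MCD cohort, 6 of 15 tested other collagens rose and 2 fell with vehicle against normal diet, where 20.3% and 21.0% of all genes did. These counts include Col22a1 (higher) and Col25a1 (lower), which passed the filter only through the groups where they are high. Col13a1 had 4.34, 4.74 and 3.19 CPM in MCD DTMB livers, 4.11, 4.6, 3.79 and 4.79 CPM in MCD vehicle livers, and 1.35, 2.35, 3.82 and 2.96 CPM in normal-diet livers. The lowest MCD vehicle liver lay just below the highest normal-diet liver. It rose by 0.72 ± 0.27 (adjusted p = 0.0464), a call that held in 1 of the 8 fits that left out a library. The diet effect differed between cohorts by -1.63 ± 0.32 (adjusted p = 0.000496).

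Col6a3 had 13.4, 8.51 and 5.22 CPM in MCD DTMB livers, 10.6, 28.4, 15.6 and 11.1 CPM in MCD vehicle livers, and 10.7, 2.77, 5.25 and 5.09 CPM in normal-diet livers. It rose by 1.46 ± 0.43 (adjusted p = 0.0185), a call lost without MCD vehicle replicate 2 (1.06, adjusted p = 0.0617). Col6a1 had 9.83, 9.16 and 6.51 CPM in MCD DTMB livers, 10.7, 19.2, 12.7 and 9.82 CPM in MCD vehicle livers, and 8.78, 2.91, 6.55 and 6.69 CPM in normal-diet livers. All its MCD vehicle livers were above normal diet, and it rose by 1.07 ± 0.30 (adjusted p = 0.0146). Col6a2 had 6.06, 4.68 and 3.34 CPM in MCD DTMB livers, 5.95, 11.1, 6.68 and 7.29 CPM in MCD vehicle livers, and 6.64, 2.41, 4.55 and 4.17 CPM in normal-diet livers. It rose by 0.80 ± 0.30 (adjusted p = 0.0490), a call that held only without normal-diet replicate 1 or MCD vehicle replicate 1. Col14a1 had 41.7, 35.9 and 32.3 CPM in MCD DTMB livers, 42.4, 92.2, 58.0 and 54.6 CPM in MCD vehicle livers, and 83.8, 26.6, 43.5 and 35.4 CPM in normal-diet livers. Its diet value of 0.38 ± 0.32 did not pass (adjusted p = 0.356), and without normal-diet replicate 1 it was 0.81 ± 0.25 (adjusted p = 0.0237).

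Members of lower level were called as well. Col12a1, a fibril-associated collagen, rose by 0.75 ± 0.22 in MCD vehicle livers (adjusted p = 0.0164). Col20a1, another member of that group, fell by 1.75 ± 0.31 (adjusted p = 0.000971), at 0.721 ± 0.302 CPM in MCD vehicle livers and 2.42 ± 0.32 CPM in normal-diet livers (SD, n = 4 each). Col25a1, a transmembrane collagen found with amyloid plaques in brain, fell by 2.59 ± 0.60 (adjusted p = 0.00516), at 0.0723 ± 0.0531 and 0.454 ± 0.156 CPM in the same groups. Col25a1 passed the filter only through the normal-diet group of this cohort, where it is high, and did not pass it in the HFD cohort. Its p-values are to be read with that limit. Col22a1, a collagen of tissue junctions, had 120 counts over all 22 libraries, part of them in the HFD cohort, where it failed the filter. In the MCD cohort it had 34 over the 3 DTMB livers, 46 over the 4 vehicle livers and 0 over the 4 normal-diet livers. With the normal-diet group taken at its floor, 3 counts in all, it was at least 12.2-fold higher with DTMB and at least 10.3-fold higher with vehicle. This bound covers counting error only, and Col22a1 passed the filter only through the MCD-diet groups.

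DTMB on MCD diet gave no call among collagens. Of the 32 tested, 0 were called against MCD vehicle by edgeR, with 2 at an unadjusted p below 0.05, and 0 by DESeq2, where 0.00624% of all 16037 genes (1 gene) was called by edgeR. The median log2 fold change was -0.44 over tested collagens and 0.017 over all tested genes. The collagens at an unadjusted p below 0.05 were Col4a2, at -0.57 ± 0.21 (adjusted p = 0.919), and Col6a2, at -0.73 ± 0.33 (adjusted p = 0.919). Col1a1 stood at -1.06 ± 0.66, Col3a1 at -0.90 ± 0.62, Col1a2 at -0.84 ± 0.49 and Col5a3 at 0.31 ± 0.29. The SE of Col1a1 was thus larger than the 0.36 of the HFD cohort. In a model over both cohorts, the DTMB effect, as HFD minus MCD, differed for 0 of 32 collagens by edgeR, with 2 at an unadjusted p below 0.05, where edgeR called 0% of all 16541 genes. DESeq2 also called 0 collagens, and 36 of 25576 genes. That difference was -1.02 ± 0.78 for Col1a1, -0.71 ± 0.71 for Col3a1 and -1.28 ± 0.54 for Col15a1, the last with the smallest p (adjusted p = 0.519). A response to DTMB that is past the threshold on HFD and not on MCD diet is therefore not shown to differ between the diets.

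DTMB livers were also set against normal diet. In the HFD cohort 3 collagens were higher and 3 lower, where 15.7% and 13.5% of all genes were called in those directions and 29.2% in either, so the count was below the background. Col5a3, which was higher, is given above. Col13a1 was lower, at -1.02 ± 0.15 (adjusted p = 0.000426). Col18a1, at 0.25 ± 0.082 (adjusted p = 0.0370), and Col27a1, at 0.60 ± 0.16 (adjusted p = 0.0161), were higher, and Col15a1 and Col4a3 were lower. The Col18a1 call held only without HFD DTMB replicate 3 or 4, and was lost without any other single library (adjusted p 0.0519 to 0.175). The Col27a1 call was lost without normal-diet replicate 1 or 3 (adjusted p 0.0699 and 0.0530). Col4a3, a kidney-type chain with 0.133 ± 0.0333 CPM in HFD DTMB livers (SD, n = 4) and 0.291 ± 0.0967 CPM in normal-diet livers (SD, n = 3), fell by 1.11 ± 0.38 (adjusted p = 0.0460), a call lost with DESeq2 (adjusted p = 0.125) and in every fit that left out 1 library except that without HFD DTMB replicate 1. Without normal-diet replicate 1 or without replicate 3 the total was 3 calls. In the MCD cohort 5 were higher and 5 lower, near the 16.2% and 16.4% of all genes called in those directions and the 32.6% in either. Those higher were Col4a1 at 0.93 ± 0.31 (adjusted p = 0.0378), Col4a5, Col11a2 at 1.68 ± 0.42 (adjusted p = 0.00960), Col12a1 and Col22a1. Those lower were Col5a3 at -0.90 ± 0.29 (adjusted p = 0.0342), Col18a1, Col20a1 at -1.84 ± 0.35 (adjusted p = 0.00196), Col25a1 at -2.43 ± 0.68 (adjusted p = 0.0169) and Col27a1 at -1.63 ± 0.28 (adjusted p = 0.000990). The Col4a1 call held only without normal-diet replicate 1 or MCD DTMB replicate 3, and was lost otherwise (adjusted p 0.0616 to 0.204). That of Col5a3 was lost without normal-diet replicate 1 or 2 or MCD DTMB replicate 2 or 3 (adjusted p 0.0683 to 0.131), and that of Col25a1 without any of the 3 DTMB libraries (adjusted p 0.0545 to 0.0680). Col25a1 passed the filter only through the normal-diet group, and Col22a1 only through the MCD-diet groups, and both are in these counts. Without MCD DTMB replicate 2 the total was 6 calls.

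Ratios between chains within a library do not depend on scaling. The log2 ratio of Col1a1 to Col1a2 counts was -1.05 ± 0.18 in HFD DTMB livers (SD, n = 4), -0.37 ± 0.09 in HFD vehicle livers (n = 4) and -1.35 ± 0.24 in normal-diet livers (n = 3). The vehicle livers, at -0.46 to -0.28, overlapped neither other group. In the MCD cohort the same ratio was -0.95 ± 0.34, -0.66 ± 0.10 and -0.86 ± 0.41, with normal-diet replicate 1 at -0.27 above all others. The ratio of Col3a1 to Col1a1 was 2.20 ± 0.30 in HFD DTMB livers, 1.64 ± 0.091 in HFD vehicle livers and 1.82 ± 0.60 in normal-diet livers. Only the DTMB and vehicle ranges did not overlap. Col4a1 and Col4a2 kept a log2 ratio near 1 on HFD, at 0.96 ± 0.19 with DTMB, 1.03 ± 0.072 with vehicle and 0.97 ± 0.073 on normal diet. On MCD diet it was 1.03 ± 0.31 with DTMB (n = 3) and 0.91 ± 0.17 with vehicle (n = 4), against 0.57 ± 0.16 on normal diet (n = 4).

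**Figure D5:**
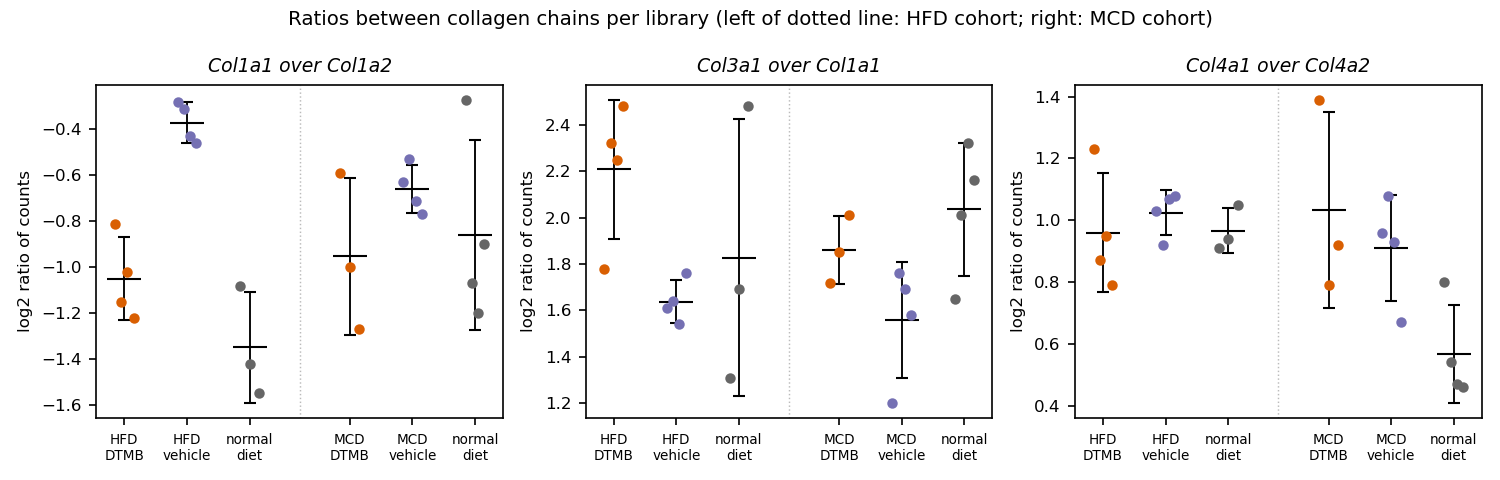
Log2 ratio of counts between collagen genes per library (y axis), with DTMB, vehicle and normal-diet groups in that order for each cohort; points are livers and bars the mean ± SD. The Col1a1 to Col1a2 ratio was -0.46 to -0.28 in HFD vehicle livers, above the HFD DTMB livers at -1.22 to -0.81 and the normal-diet livers at -1.55 to -1.08.

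The plot of chain ratios carries no test. The counts were not divided by exon length, so a ratio is read between libraries and not between genes.

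Genes that fold, trim, cross-link, bind and degrade collagen were read from 6 lists. Over all tested genes, 15.2% were called higher and 12.6% lower for HFD vehicle against normal diet. The counts for folding genes, partners and receptors were near those shares, as was the higher count of fibril-associated proteins. On HFD with vehicle against normal diet, 5 of 24 tested genes of procollagen folding rose and 4 fell, with a median log2 fold change of 0.18. Serpinh1, the collagen chaperone HSP47, rose by 1.11 ± 0.17, to 12.0 ± 1.63 CPM against 5.58 ± 0.902 CPM on normal diet (SD, n = 4 and 3). P3h1, a prolyl 3-hydroxylase, fell by 0.58 ± 0.12, and Sec23a, of the vesicle coat that exports procollagen, fell by 0.46 ± 0.081. Of 14 trimming and cross-linking genes 5 rose and 1 fell, with Pcolce, the enhancer of C-propeptide removal, at 0.99 ± 0.15 and the cross-linking enzyme Loxl1 at 0.98 ± 0.24. Of 17 fibril-associated proteins 3 rose and 0 fell, namely Postn at 0.90 ± 0.21, Lum at 0.64 ± 0.17 and Tnc at 1.70 ± 0.50. Basement membrane partners (19 tested) and receptors (12 tested) had 2 higher and 2 lower each, with the nidogen Nid2 at -1.42 ± 0.15 and the integrin chain Itga2 at -2.62 ± 0.32. Of 10 degrading enzymes 5 rose and 1 fell, with the macrophage elastase Mmp12 at 3.07 ± 0.62. Adjusted p of the genes named here lay between 6.36e-05 and 0.0250.

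With DTMB against vehicle on HFD, where 6.64% of all tested genes were called higher and 6.04% lower, the calls outside the folding list were all lower. Folding genes had 2 higher and 2 lower of 24, with Ppib, the cyclophilin of the prolyl 3-hydroxylation complex, at 0.44 ± 0.075 and Creb3l1, a transcription factor known to act on Col1a1 in mouse bone, at -1.26 ± 0.32. Trimming and cross-linking genes had 0 higher and 4 lower of 14, among them Sparc at -0.63 ± 0.14, Loxl1 at -0.90 ± 0.22 and the transglutaminase Tgm2 at -0.52 ± 0.11. Fibril-associated proteins had 0 higher and 4 lower of 17, with Tnxb at -0.86 ± 0.20, Tnc at -1.90 ± 0.46 and fibromodulin, Fmod, at -1.15 ± 0.29. Basement membrane partners had 0 higher and 4 lower of 19, with Nid1 at -0.75 ± 0.14 and the laminin chain Lamc1 at -0.67 ± 0.12. Receptors had 0 higher and 2 lower of 12 (Itga1 and Cd44), and degrading enzymes 0 higher and 2 lower of 10 (Mmp12 and Mmp13). Adjusted p of these genes lay between 0.00987 and 0.0498. Median log2 fold changes of the lists ran from -0.47 to -0.08.

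On MCD diet with vehicle against normal diet, 20.3% of all tested genes were called higher and 21.0% lower, and the higher calls of trimming and fibril-associated genes were near that share. Folding genes had 8 higher and 3 lower of 24, with the hydroxylysine galactosyltransferase Colgalt1 at 0.63 ± 0.078 and P4hb at 0.75 ± 0.13. Trimming and cross-linking genes had 3 higher and 1 lower of 14, led by the N-propeptidases Adamts3 at 2.23 ± 0.36 and Adamts14 at 1.77 ± 0.34. Fibril-associated proteins had 4 higher and 0 lower of 17, with decorin, Dcn, at 1.09 ± 0.17 and Lum at 1.53 ± 0.29. Basement membrane partners had 9 higher and 3 lower of 19, with Smoc2 at 2.79 ± 0.26, Lamb3 at 2.20 ± 0.15 and Nid2 at -1.90 ± 0.29. Receptors had 7 higher and 0 lower of 12, with the collagen-binding kinase Ddr1 at 2.00 ± 0.39 and Itga1 at 0.73 ± 0.099. Degrading enzymes had 9 higher and 0 lower of 11, with Mmp12 at 7.71 ± 0.84 with 98.8 ± 63.0 CPM in MCD vehicle livers and 0.452 ± 0.649 CPM in normal-diet livers (SD, n = 4 each), and the cathepsin Ctsk at 3.71 ± 0.44. Adjusted p of these genes lay between 1.25e-06 and 0.00185. With DTMB against vehicle on MCD diet, 0 genes of the 6 lists were called by edgeR, with 0 to 3 per list at an unadjusted p below 0.05.

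Marker counts stand against the same shares over all genes, 15.2% higher and 12.6% lower on HFD, 6.64% and 6.04% with DTMB on HFD, and 20.3% and 21.0% on MCD diet. Summed portal fibroblast and mesothelial markers were 35.4 to 49.3 CPM in HFD DTMB livers, 56.6 to 79.9 CPM in HFD vehicle livers and 39.8 to 52.6 CPM in normal-diet livers. A large part of that sum was Gas6, at 19.4 to 28.4 CPM with DTMB, 37.3 to 45.7 CPM with vehicle and 24.6 to 26.9 CPM on normal diet. Of 15 tested, 3 rose on HFD (Entpd2, Gas6 and Mfap4) and 2 fell with DTMB (Gas6 and Entpd2). Summed stellate cell markers were 697 to 778 CPM in HFD DTMB livers, 678 to 805 CPM in HFD vehicle livers and 942 to 1219 CPM in normal-diet livers. A large part of that sum was Tmem56, at 391 to 452 CPM with DTMB, 337 to 470 CPM with vehicle and 620 to 906 CPM on normal diet. Of 16 stellate markers, 1 rose and 2 fell on HFD, so the HFD diet count was no larger than the background. With DTMB on HFD 2 rose (Angptl6 and Vipr1) and 2 fell (Pdgfrb and Sod3). In the MCD cohort the stellate sum was 651 to 661 CPM with DTMB, 589 to 872 CPM with vehicle and 409.9 to 595 CPM on normal diet. Tmem56 made up 272 to 289, 196 to 361 and 167 to 232 CPM of it in the same order. For vehicle against normal diet, 7 of 16 stellate markers were higher and 0 lower. The portal sum there was 52.2 to 62.0 CPM with DTMB, 52.1 to 91.9 CPM with vehicle and 24.9 to 54.0 CPM on normal diet. Of 14 portal markers tested, 3 were higher and 0 lower for vehicle against normal diet, with a median log2 fold change of -0.16. Summed cholangiocyte markers, listed for bile duct cells, reached 159 CPM in MCD vehicle replicate 2 and at most 65.8 CPM in the other MCD vehicle livers. Most of the 159 CPM was Spp1, at 41.6 to 144 CPM in these livers. Krt19, Krt7 and Epcam reached at most 2.07, 1.55 and 4.36 CPM there. Of the cholangiocyte markers 1 of 6 rose and 1 fell on HFD, 0 changed with DTMB on HFD, and 2 of 7 rose on MCD diet. Of 10 endothelial markers 2 fell on HFD, 1 fell with DTMB on HFD, and 2 rose on MCD diet. Of 5 hepatocyte markers 1 rose and 1 fell on HFD, 2 rose with DTMB on HFD, and 3 fell on MCD diet. Acinar markers had 0 calls of 18 in both HFD comparisons and 7 lower of 9 on MCD diet. Muscle markers had 5 lower of 6 on HFD. Adipose markers had 0 calls in all of these. In each of the former, 1 normal-diet library held most of the sum. Summed acinar markers were 10.8, 18.0, 25.2 and 553 CPM in MCD-cohort normal-diet replicates 1 to 4. Summed muscle markers were 212, 0.307 and 0.276 CPM in HFD-cohort normal-diet replicates 1 to 3. These lower calls are to be read with that limit. The only cartilage marker tested, Sox9, which bile duct cells also make, fell on HFD. With DTMB on MCD diet 0 markers of these lists were called by edgeR, with 0 to 3 per list at an unadjusted p below 0.05. Their part in the collagen values was not tested.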

How the data were processed

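Libraries were grouped by the labels' diet and treatment. The authors deposited raw gene counts, 1 table per cohort, and the submitters' processing notes name HISAT2 2.1.0 and StringTie 2.1.3b with mm10, besides Trimmomatic 0.38 and FastQC 0.11.7, without roles. Whether counting used strand, and how reads with several matches were treated, is not given in the sources used here, so the overlapping pairs Col4a1 and Col4a2, and Col4a3 and Col4a4, are uncertain.

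Each cohort was fitted alone over its 3 groups with edgeR 4.0.16 in R 4.3.3 (filterByExpr, TMM, glmQLFit, glmQLFTest), and differences between cohorts over all 22 libraries. Adjusted p are Benjamini-Hochberg values of this quasi-likelihood test over all tested genes, called below 0.05 with no fold minimum. SE is the log2 fold change over the square root of F. CPM used TMM-scaled library sizes, and exon length is the union of GENCODE exons. The code was tested on simulated counts. The replicates are labelled biological, with no statement that each is 1 animal, so p-values measure the spread between these samples. Replicate pairs of a group differed by at least 24.9 chi-square per degree of freedom.

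Named collagens were the 5 most abundant fibrillar, 4 basement membrane and 5 other members, plus called members with a log2 change of at least 1. Col4a5, Col5a2, Col6a2, Col12a1, Col16a1 and Col27a1, where outside that rule, were chosen after their values were seen. The members and lists were chosen with earlier results of these data known. Alternatives were DESeq2 1.42.0, other scaling, filters, a replicate block, 1 joint fit, only the compared groups, and leaving out libraries. Promoter sequences came from RefSeq.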

Additional observations from a re-analysis of the deposited data

Results flagged for a closer look

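In HFD DTMB livers, replicate 1 stood apart from the other 3 for both chains of type IV collagen. Its Col4a1 level was 27.2 CPM, with the next at 17.8 CPM, and its Col4a2 level was 11.6 CPM, with the next at 9.44 CPM. These were 2 of 56 groups examined, and chance marks about 1 in 20 groups in this way.

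In edgeR's quasi-likelihood test with Benjamini-Hochberg adjustment, 35.3% of all 16541 tested genes differed between the cohorts in the effect of diet with vehicle. That effect, as HFD minus MCD on the log2 scale, differed for 8 of 32 tested collagens, a count no larger than that background. It was higher on HFD for Col5a3 (2.73, adjusted p = 2.17e-06), Col25a1 (2.12, adjusted p = 0.0472), Col27a1 (1.85, adjusted p = 5.98e-05), Col20a1 (1.45, adjusted p = 0.00471), Col15a1 (1.41, adjusted p = 0.0496) and Col18a1 (0.92, adjusted p = 9.41e-05). It was lower on HFD for Col13a1 (-1.63, adjusted p = 0.000496) and Col22a1 (-10.52). No p is given for Col22a1: it did not pass the filter in the HFD cohort and is at 0 in the MCD normal-diet libraries, so its value depends on the prior count and is no bound. The difference for Col15a1 stayed past the threshold in 4 of 15 fits that left out 1 library, and that for Col25a1 in 5 of 15. Col25a1 also did not pass the filter in the HFD cohort, and passed it in the MCD cohort only through the normal-diet libraries. Diet and cohort cannot be told apart here.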

How the results depend on the processing

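No called fold change of the 22 collagens followed across the alternative runs reversed. Col4a5, Col12a1 and Col16a1 were not among those 22. The collagens called numbered 16 for HFD vehicle against normal diet, 10 in the joint fit of all 22 libraries, 1 without the libraries with acinar transcripts, and 12 to 17 with 1 library left out. For HFD DTMB against HFD vehicle they numbered 14, with 2 in the joint fit, 0 without the acinar libraries, and 8 to 14 with 1 library left out. For HFD DTMB against normal diet they numbered 6, with 3 in the joint fit, 1 without the acinar libraries, and 3 to 6 with 1 library left out. For MCD DTMB against normal diet they numbered 10, and 6 to 10 with 1 library left out. The cause of these moves was not tested. Other alternatives left the counts within 1.5 times. Not every same-numbered pair deviated together. In the HFD cohort correlations ran from -0.523 to 0.463, with the 3 pairs of replicate 2 at 0.253, 0.322 and 0.463, and in the MCD cohort from -0.393 to 0.118, so the numbers were not taken to pair the samples. With a replicate block the counts were 14 for HFD vehicle against normal diet, 11 for HFD DTMB against HFD vehicle, 4 for HFD DTMB against normal diet, 14 for MCD vehicle against normal diet, 0 for MCD DTMB against MCD vehicle, 9 for MCD DTMB against normal diet, 7 for the diet difference and 0 for the DTMB difference. Collagens of low level rest on few counts per library, which limits their precision.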
